A study of Mus musculus with 6 samples.

Results

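Transcripts of 7 genes of duodenal chloride, bicarbonate and sodium transport were examined in villus epithelium: *Cftr*, *Slc26a3*, *Slc26a6*, *Slc9a2*, *Slc9a3*, *Slc4a4* and *Atp1b1*. They were chosen by symbol, and all 7 were present among the 20409 features of the count table and among the 13346 that passed the filter on low counts. The data were bulk RNA-seq libraries of duodenal villi from 3 double mutant mice (DMV 1 to 3) and 3 wild-type mice (WTV 1 to 3), 1 library per mouse, and mouse 1 of each group was male and the other 2 female. Double mutants were *Smad4* fl/fl with 1 floxed exon 3 allele of the β-catenin gene *Ctnnb1*, labelled Smad4 knockout and beta-catenin GOF, and carried Villin-CreERT2, which recombines across the whole intestinal epithelium after tamoxifen. They were given 0.05 g/kg tamoxifen on 4 consecutive days and were compared 7 days after induction. The background was enriched for C57BL6. Wild-type mice were littermates without tamoxifen, so the drug and the mutations cannot be told apart. Ages were matched, and their values are not given in the sources used here.

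The duodenum meets gastric acid with secreted bicarbonate, while its villi absorb salt. Absorption couples an apical sodium-hydrogen exchanger, NHE3 (*Slc9a3*) or NHE2 (*Slc9a2*), to an apical chloride-bicarbonate exchanger, DRA (*Slc26a3*) or PAT1 (*Slc26a6*). Secretion runs through CFTR, the cyclic AMP-gated channel for chloride and bicarbonate that is mutated in cystic fibrosis and is normally most abundant in crypts. At the basolateral membrane the cotransporter NBCe1 (*Slc4a4*) brings in bicarbonate, and the sodium pump, whose β1 subunit is encoded by *Atp1b1*, maintains the sodium gradient.

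RefSeq promoters were found for 6 of the 7 genes, all except *Slc9a2*. The 250 bases before the start site are shown for both genes that were higher in double mutants and for PAT1 and NHE3, which were lower, since these 4 encode apical transporters that moved in opposite directions. Sequences run 5′ to 3′ on the strand of the gene, and capitals mark CACCC, a core bound by Krüppel-like factors, on either strand.
Cftr (GRCm38.p6 chr6:18170437-18170686, plus strand): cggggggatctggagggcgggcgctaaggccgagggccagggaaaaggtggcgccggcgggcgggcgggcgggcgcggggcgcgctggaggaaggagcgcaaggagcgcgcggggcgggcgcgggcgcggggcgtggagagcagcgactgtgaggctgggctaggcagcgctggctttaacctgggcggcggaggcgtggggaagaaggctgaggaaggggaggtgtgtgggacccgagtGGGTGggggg
Slc26a3 (GRCm38.p6 chr12:31437969-31438218, plus strand): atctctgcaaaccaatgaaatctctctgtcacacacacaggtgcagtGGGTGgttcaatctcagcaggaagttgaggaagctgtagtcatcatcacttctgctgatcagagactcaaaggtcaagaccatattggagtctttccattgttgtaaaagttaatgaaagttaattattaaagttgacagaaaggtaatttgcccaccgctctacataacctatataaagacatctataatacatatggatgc
Slc26a6 (GRCm38.p6 chr9:108853793-108854042, plus strand): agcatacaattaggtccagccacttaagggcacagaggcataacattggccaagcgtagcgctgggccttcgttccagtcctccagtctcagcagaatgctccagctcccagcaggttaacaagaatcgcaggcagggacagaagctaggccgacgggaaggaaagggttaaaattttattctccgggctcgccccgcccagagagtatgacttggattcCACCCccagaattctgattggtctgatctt
Slc9a3 (GRCm38.p6 chr13:74121163-74121412, plus strand): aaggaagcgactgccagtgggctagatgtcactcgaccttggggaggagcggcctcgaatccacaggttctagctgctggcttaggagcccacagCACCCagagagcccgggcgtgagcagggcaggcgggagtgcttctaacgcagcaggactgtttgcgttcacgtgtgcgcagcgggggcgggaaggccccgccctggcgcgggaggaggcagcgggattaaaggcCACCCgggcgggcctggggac
Of 5 motifs searched on both strands, from 250 bases before to 50 after the start site, CACCC was in each of the 7 promoters listed for the 6 genes, of which *Slc4a4* has 2, and in 57.5% of 32851 RefSeq promoters of this length. The other 4 motifs had no match in any of the 7. They were ATCAAAG for TCF/LEF (in 3.73% of all promoters), CAGACA for SMAD (21.0%), TTTATG for CDX (11.9%) and CAAAGTC for HNF4 (4.44%), whose first letters can overlap the TCF/LEF core. These matches describe letters in a window and not bound sites.

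Libraries held 19678507 to 26337318 counts. Levels are given as CPM, counts scaled to a common library size with edgeR's TMM factors, changes as log2 fold changes of DMV over WTV (log2FC), and 3 counts, taken as the floor, equalled 0.125 to 0.163 CPM. *Smad4* had 119.8, 180.1 and 144 CPM in WTV 1 to 3 and 26.1, 36.8 and 32.1 CPM in DMV 1 to 3, with log2FC -2.22 at an adjusted p of 0.000145 by edgeR's quasi-likelihood test, and means below are given ± SD over the 3 mice of a group. *Ctnnb1*, whose count does not separate exon 3, had log2FC -0.15 at an adjusted p of 0.359. The 15 enterocyte markers were abundant in all libraries, summing to 64406 to 76701 CPM in WTV and 40511 to 44604 CPM in DMV. WTV 1, the single wild-type male, stood apart: its 9 goblet cell markers summed to 125.5 CPM, against 11632 and 11052 CPM in WTV 2 and 3 and 4676 to 5071 CPM in DMV. Its Paneth cell markers summed to 7.91 CPM, against 912 and 1505 CPM in WTV 2 and 3 and 154 to 249 CPM in DMV. With all mice, 1 of the 9 goblet cell markers was higher and 0 lower, and 0 of 7 Paneth cell markers passed. Without WTV 1, 6 goblet cell markers were lower and 1 higher, and 4 Paneth cell markers were lower and 1 higher out of 8 tested. Markers of tuft cells (9 of 9 tested) and of enteroendocrine cells (8 of 9) were lower in DMV, and those of mesenchyme, endothelium and nerve summed to 1.75 to 3.26 CPM in WTV and 3.84 to 9.67 CPM in DMV. In bulk samples, fewer cells of a type and less RNA per cell cannot be told apart.

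In double mutants *Cftr* and *Slc26a3* were higher, *Slc26a6*, *Slc9a2*, *Slc9a3* and *Atp1b1* were lower, and *Slc4a4* did not pass the test. Thus 6 of 7 genes passed at an adjusted p under 0.05, 2 higher and 4 lower, against 36.8% of all tested genes, 19.7% higher and 17.0% lower. Among the 1032 genes whose level reached that of the lowest of the 7, the share was 55.9%. CPM values of the groups did not overlap for the same 6 genes. Of all tested genes, 52.4% did not overlap, 28.1% lying higher and 24.2% lower in DMV. With a log2FC of at least 1 in size also required, 2 of the 7 passed (17.1% of all genes), and with at least 2, 0 passed (5.3%). The median log2FC of the 7 was -0.52, against 0.02 over all genes. Scaling by library size alone raised the log2FC by a median of 0.19, and the higher genes then made up 72.4% of all calls in place of 53.7%. With that scaling 5 of the 7 genes passed, in the same directions.

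**Figure D1:**
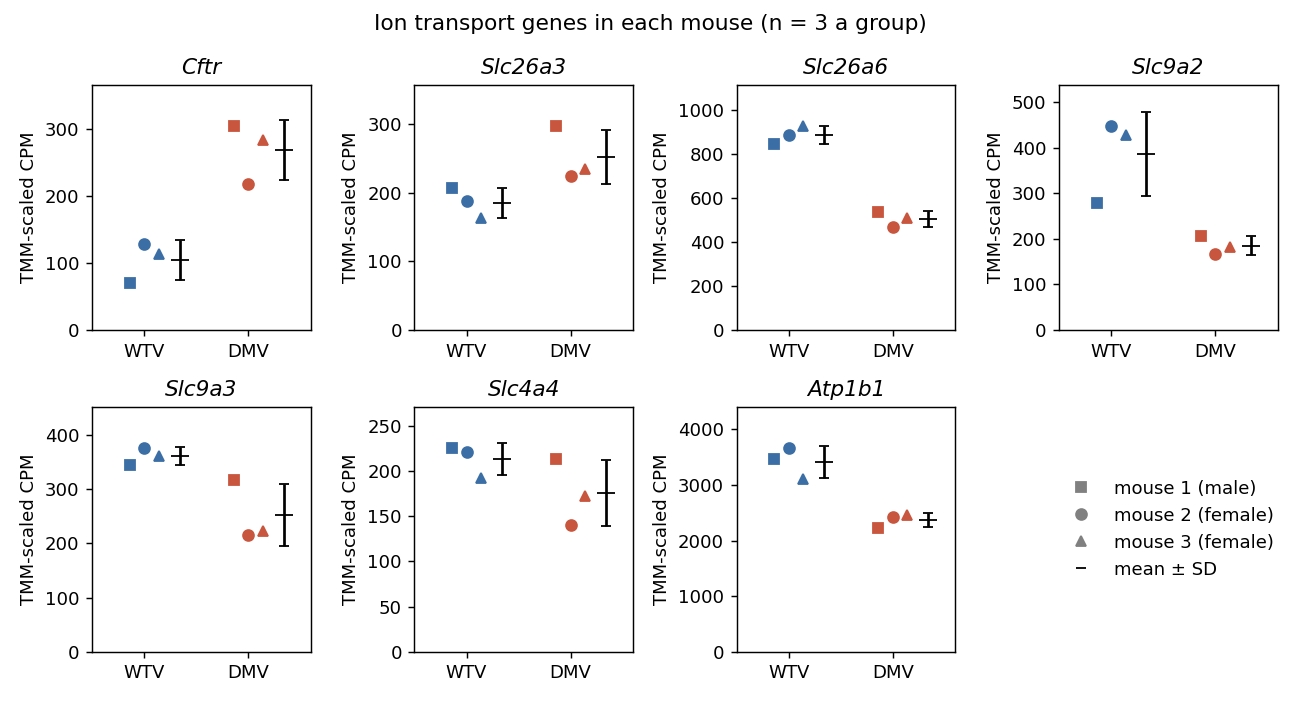
TMM-scaled CPM of the 7 transport genes in each wild-type (WTV, blue) and double mutant mouse (DMV, red), with the mean and SD of each group of 3 in black and axes from 0; squares are the males. *Cftr* and *Slc26a3* lay higher in every double mutant mouse, *Slc4a4* overlapped between groups, and the other 4 genes lay lower.

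*Cftr* (ENSMUSG00000041301, mm9 chr6:18120687-18272768, plus strand) had the largest change of the 7. It had 70.6, 129 and 113 CPM in WTV 1 to 3 and 305, 218 and 283 CPM in DMV 1 to 3. Every double mutant lay well above every wild-type mouse, and WTV 1 was the lowest of all. The log2FC was 1.37 (SE 0.229, adjusted p = 0.00293), a 2.58-fold rise with a 95% interval of 1.79 to 3.72. Without WTV 1 it was 1.15 (adjusted p = 0.000579). The antisense transcript Gm15592 shares 129 of the 7765 exon bases of *Cftr* and had at most 16 counts in a mouse, against at least 1695 counts for *Cftr*.

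Crypt markers moved with *Cftr*. Of 14 crypt stem and progenitor markers, 10 were higher and 0 lower, and their sum was 117, 234 and 254 CPM in WTV 1 to 3 and 617 to 726 CPM in DMV. WTV 1 was the lowest mouse for both the crypt markers and *Cftr*. The stem cell marker *Lgr5* had 0.167, 0.925 and 0.809 CPM in WTV 1 to 3 and 3.47, 2.32 and 2.75 CPM in DMV 1 to 3. It was low throughout and higher in every double mutant (log2FC 2.19 at an adjusted p of 0.0139), a call lost without DMV 1 (adjusted p = 0.0528). The number of crypt markers called higher was 12 without WTV 1, 6 without DMV 1 and 7 without DMV 2, with 0 lower in each of these fits. Brunner gland cells also express *Cftr*. The Brunner gland mucin *Muc6* reached 2.49 CPM at most, and 4 Brunner gland markers together 1.25 to 3.23 CPM in WTV and 2.09 to 5.45 CPM in DMV. These 4 include *Gkn3*, which the authors used as a marker of *Lgr5*-positive stem cells. Pancreatic acinar enzyme genes other than *Cela1* stayed at or below 0.742 CPM in every mouse, and no marker of pancreatic duct cells was examined. The part of the crypt markers in the rise of *Cftr* was not tested.

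**Figure D2:**
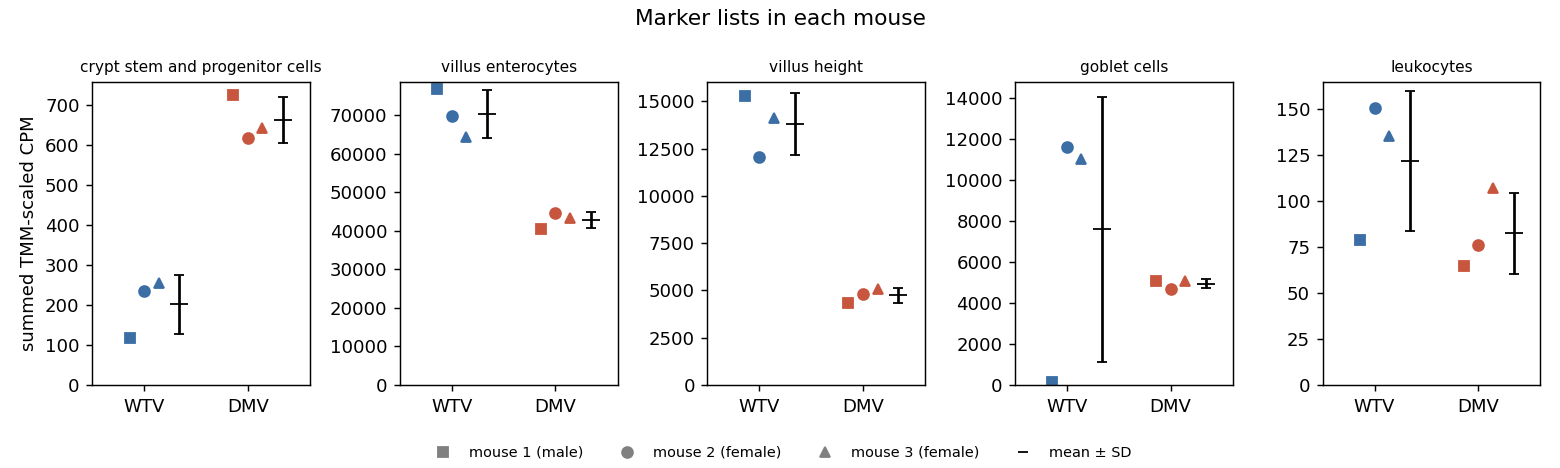
Summed TMM-scaled CPM of marker lists in each mouse, with the mean and SD of each group of 3 in black. Crypt markers lay higher and enterocyte and upper villus markers lower in all double mutant mice, and WTV 1 (blue square) had far fewer goblet cell transcripts than the other mice.

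The apical chloride-bicarbonate exchangers changed in opposite directions. *Slc26a3* (ENSMUSG00000001225, mm9 chr12:32075736-32158782, plus strand), mutated in congenital chloride diarrhoea, had 207, 188 and 163 CPM in WTV 1 to 3 and 298, 225 and 235 CPM in DMV 1 to 3. The groups lay close without overlapping, and DMV 1 was the highest. The log2FC was 0.44 (SE 0.145, adjusted p = 0.0411), or 1.36-fold. This call was lost without WTV 2 (adjusted p = 0.0987), WTV 3 (0.138), DMV 1 (0.10) or DMV 3 (0.0703), and the log2FC ranged over 0.32 to 0.53 across the 6 fits with a mouse left out.

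*Slc26a6* (ENSMUSG00000023259, mm9 chr9:108756368-108764472, plus strand), whose product also carries oxalate, had 848, 886 and 929 CPM in WTV 1 to 3 and 539, 469 and 509 CPM in DMV 1 to 3. Each group was tight, and the gap between them was wider than the spread of either. The log2FC was -0.81 (SE 0.110, adjusted p = 0.000970), 1.76-fold lower, and it passed with any mouse left out (-0.85 to -0.76).

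Both apical sodium-hydrogen exchangers were lower. *Slc9a2* (ENSMUSG00000026062, mm9 chr1:40738557-40825730, plus strand) had 279.8, 449 and 429 CPM in WTV 1 to 3 and 207, 166 and 182 CPM in DMV 1 to 3. WTV 1 lay nearer to the double mutants than to the other wild-type mice, though still above them. The log2FC was -1.06 (SE 0.186, adjusted p = 0.00316), and -1.25 (adjusted p = 0.000104) without WTV 1. *Slc9a3* (ENSMUSG00000036123, mm9 chr13:74258963-74303512, plus strand) had 345, 377 and 362 CPM in WTV 1 to 3 and 318, 216 and 224 CPM in DMV 1 to 3. DMV 1 lay just below the wild-type mice, and DMV 2 and 3 far below. Its log2FC was -0.52 (SE 0.158, adjusted p = 0.0321). The call was lost without WTV 2 (adjusted p = 0.0905), WTV 3 (0.0749), DMV 2 (0.101) or DMV 3 (0.120), and with library size alone (log2FC -0.32, adjusted p = 0.155).

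At the basolateral membrane, *Slc4a4* (ENSMUSG00000060961, mm9 chr5:89315843-89668678, plus strand) had 226, 221 and 193 CPM in WTV 1 to 3 and 214, 141 and 172 CPM in DMV 1 to 3. DMV 1 fell within the wild-type range, so the groups overlapped. The log2FC was -0.28 (SE 0.158, adjusted p = 0.197), with a 95% interval from -0.64 to 0.08 that includes both no change and the estimates for *Slc9a3* and *Atp1b1*. Without DMV 1 it was -0.44 (adjusted p = 0.0463). *Atp1b1* (ENSMUSG00000026576, mm9 chr1:166367398-166388486, minus strand) had 3471, 3674 and 3103 CPM in WTV 1 to 3 and 2225, 2431 and 2462 CPM in DMV 1 to 3. No double mutant reached the lowest wild-type mouse. The log2FC was -0.53 (SE 0.121, adjusted p = 0.0102), 1.44-fold lower, and the adjusted p was at most 0.0384 with any mouse left out.

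**Figure D3:**
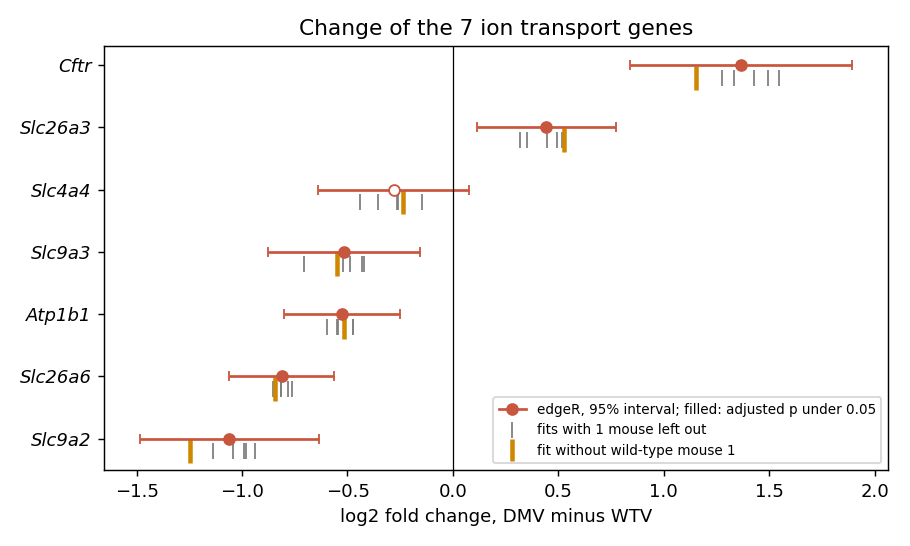
Log2 fold change of each transport gene, DMV over WTV, with its 95% interval from edgeR. Ticks show the 6 fits with a mouse left out, the coloured tick being the fit without WTV 1, in which *Cftr* moved from 1.37 to 1.15 and *Slc9a2* from -1.06 to -1.25; no gene changed direction.

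Mature enterocyte markers moved with the lower genes. Of the enterocyte list, 11 markers were lower and 1 higher, the fatty acid binding protein gene *Fabp1*. The groups overlapped for *Fabp1*, and its call was lost with sex as a covariate and without WTV 2, WTV 3, DMV 2 or DMV 3 (adjusted p 0.0529 to 0.115). Genes of the upper villus summed to 12040 to 15260 CPM in WTV and 4321 to 5084 CPM in DMV, most of it from the apolipoprotein gene *Apoa4*, which is also in the enterocyte list, and 8 of 9 tested were lower, the exception being *Creb3l3*. Their part in the lower levels of the exchangers and of *Atp1b1* was not tested.

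Per kilobase of exon (RPKM), levels in wild-type villi ran from *Atp1b1* (1410 ± 119.7 RPKM, SD, n = 3) through *Slc26a6* (427 ± 19.7), *Slc9a3* (145 ± 6.41), *Slc9a2* (110.5 ± 26.5), *Slc26a3* (29.2 ± 3.45) and *Slc4a4* (19.7 ± 1.65) to *Cftr* (13.4 ± 3.87). Neighbours in this order did not overlap. In double mutants *Cftr* (34.6 ± 5.79 RPKM) stood above *Slc4a4* (16.2 ± 3.38 RPKM) and overlapped with *Slc26a3* (39.7 ± 6.22 RPKM). *Slc26a6*, at 243 ± 16.9 RPKM in DMV, was the most abundant of the apical transporters in both groups. Lengths are those of all annotated exons of a gene, used or not.

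Ratios between genes within a mouse do not depend on library scaling and are given as a description. Per kilobase, *Slc26a3* reached 0.0797, 0.0692 and 0.0573 of the level of *Slc26a6* in WTV 1 to 3 and 0.181, 0.157 and 0.151 in DMV 1 to 3. The groups did not overlap, and PAT1 stayed the more abundant exchanger transcript in every mouse. *Cftr* reached 0.0656, 0.110 and 0.10 of the level of *Slc9a3* in WTV 1 to 3 and 0.307, 0.324 and 0.406 in DMV 1 to 3, a mean difference of 1.94 on the log2 scale without overlap. The ratio of *Slc9a3* to *Slc9a2* was 1.73, 1.18 and 1.18 in WTV and 2.16, 1.82 and 1.72 in DMV, where WTV 1 overlapped with the double mutants.

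**Figure D4:**
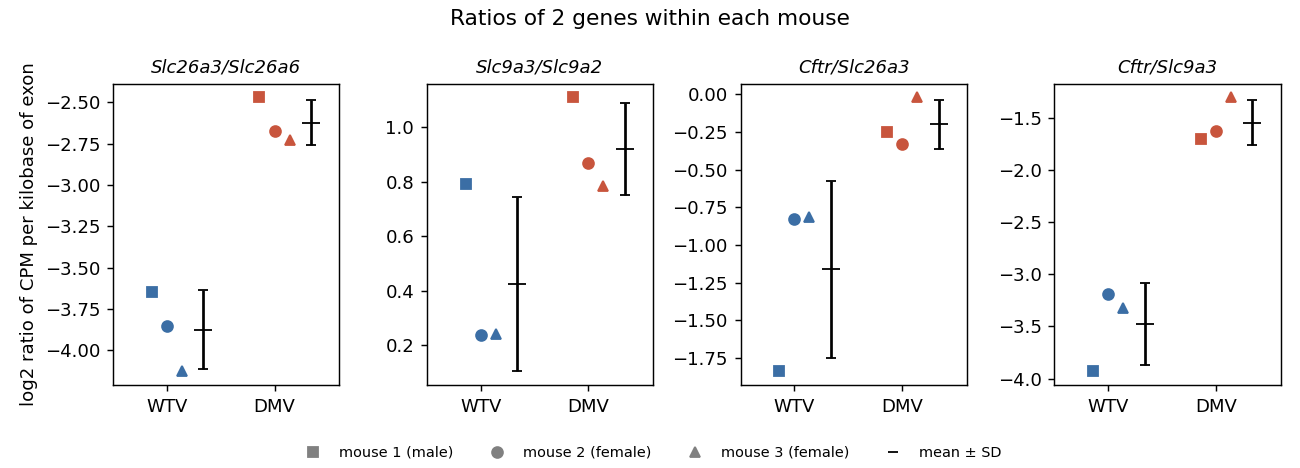
Log2 ratio of CPM per kilobase of exon for 4 pairs of genes within each mouse, with the mean and SD of each group of 3 in black. The groups overlap for *Slc9a3* over *Slc9a2* and are separate for the other 3 pairs.

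The wider machinery of ion and fluid transport was covered by 10 lists of 157 genes, of which 103 were tested. Of these, 14 were higher and 38 lower, or 50.5% against 36.8% of all genes, with a median log2FC of -0.32.

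Scaffolds and regulators of the apical transporters were mostly lower: 1 was higher and 12 lower out of 20 tested, with a median log2FC of -0.50, or -0.30 with library size alone. *Slc9a3r1*, encoding NHERF1, which links NHE3 and CFTR to ezrin, had 2180, 2018 and 1689 CPM in WTV 1 to 3 and 773, 909 and 978 CPM in DMV 1 to 3. All double mutants lay far below the wild-type mice (log2FC -1.15 at an adjusted p of 0.000737). *Ezr*, encoding ezrin, stood at 1630 ± 119 CPM in WTV and 676 ± 86.9 CPM in DMV (log2FC -1.27 at an adjusted p of 0.000337). The scaffold gene *Pdzk1* was lower too (log2FC -1.61 at an adjusted p of 0.000577). Among kinases that stimulate sodium transport, *Sgk2* (log2FC -2.82 at an adjusted p of 5.15e-05) and *Sgk3* (log2FC -1.64 at an adjusted p of 0.000518) were lower. The 1 higher gene was *Stk39*, encoding SPAK, a kinase of cation-chloride cotransporters, at 28.7 ± 5.84 CPM in WTV and 81.2 ± 8.46 CPM in DMV (log2FC 1.5 at an adjusted p of 0.000379).

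Among other anion exchangers, chloride channels and related genes, 2 were higher and 6 lower out of 18 tested, with a median log2FC of -0.42, or -0.23 with library size alone. Of the 2 higher genes, *Clns1a* is counted here as a related gene (log2FC 0.53 at an adjusted p of 0.0108). The sulphate transporter gene *Slc26a2* stood at 225 ± 28.7 CPM in WTV and 58.4 ± 17.7 CPM in DMV (log2FC -1.95 at an adjusted p of 0.000698). *Clic5* (log2FC -1.03 at an adjusted p of 0.000593), which had the highest level of the list, and *Clic4* (log2FC -1.70 at an adjusted p of 0.00119) were lower. *Slc26a4*, encoding pendrin, had 52 counts over all WTV and 4 over all DMV libraries, a 13.4-fold lower scaled level with a 95% counting interval of 4.92 to 50.9. *Ano1*, a calcium-activated chloride channel, was low at 1.69 ± 0.863 CPM in WTV and 4.02 ± 0.517 CPM in DMV (log2FC 1.26 at an adjusted p of 0.0420), a call lost without WTV 3 or any of the DMV mice (adjusted p 0.0773 to 0.114).

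Of other sodium-hydrogen exchangers and sodium channels, 1 was higher and 0 lower out of 6 tested, with a median log2FC of 0.14 that was 0.34 with library size alone, 0.24 without WTV 3 or DMV 2 and 0.08 without DMV 1. With library size alone or without WTV 1, 2 were higher and 0 lower. *Slc9a4*, the gastric exchanger NHE4, had 0, 0 and 2 counts in WTV 1 to 3 and 45, 21 and 33 counts in DMV 1 to 3. It was near the floor in wild-type villi and low but present in every double mutant. Counts pooled over the mice of a group gave a scaled ratio of 48.1 (95% counting interval 12.98 to 403). The edgeR fit over mice gave log2FC 5.34 (adjusted p = 0.00201). Both wild-type counts came from WTV 3, and without it the fitted log2FC moved from 5.34 to 8.05, a value that depends on the prior count since the remaining wild-type libraries were at 0.

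Bicarbonate genes changed both ways. Of other bicarbonate transporters, 0 were higher and 3 lower out of 6 tested, with a median log2FC of -0.93. *Slc4a7*, encoding the electroneutral cotransporter NBCn1, had 519, 659.6 and 453 CPM in WTV 1 to 3 and 325, 155 and 258 CPM in DMV 1 to 3. All double mutants lay below the wild-type mice (log2FC -1.14 at an adjusted p of 0.0142). *Slc4a8* was lower at a low level (3.47 ± 0.242 CPM in WTV and 0.312 ± 0.211 CPM in DMV, adjusted p = 0.00122). Of carbonic anhydrases, which interconvert carbon dioxide and bicarbonate, 4 were higher and 3 lower out of 9 tested, with a median log2FC of 0.22, and with a mouse left out this median ran from -0.15 without DMV 1 to 0.53 without DMV 2, with 0.05 without WTV 3, 0.13 without WTV 1 and 0.50 without WTV 2. It was 0.41 with library size alone and 0.14 with limma-voom, and 1.66 with the stricter filter, 1.64 without a filter and 1.69 with DESeq2, which changed the number of genes to 7, 14 and 14. The membrane-anchored *Car4* had 365, 326 and 327 CPM in WTV 1 to 3 and 29.2, 50.5 and 69.0 CPM in DMV 1 to 3. It was far lower in every double mutant (log2FC -2.78 at an adjusted p of 0.000557). *Car9*, a known hypoxia target, had 53.4, 88.8 and 80.6 CPM in WTV 1 to 3 and 241, 226 and 241 CPM in DMV 1 to 3 and was higher in each of them (log2FC 1.67 at an adjusted p of 0.000379). *Car12* (log2FC 2.52 at an adjusted p of 0.000945), *Car8* (log2FC 1.77 at an adjusted p of 0.00442) and *Car6* (log2FC 2.94 at an adjusted p of 0.0100) were higher and *Car7* (log2FC -2.49 at an adjusted p of 0.00826) lower, all at low levels, and with a mouse left out the log2FC of *Car6* ran from 2.29 to 3.43. The cytosolic *Car2* stood at 137 ± 19.6 CPM in WTV and 96.1 ± 15.3 CPM in DMV (log2FC -0.51 at an adjusted p of 0.0299), a call lost with library size alone and without WTV 2, WTV 3, DMV 2 or DMV 3 (adjusted p 0.0633 to 0.103 in these 4 fits).

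Among basolateral potassium channels, which recycle potassium during secretion, 3 were higher and 2 lower out of 7 tested, with a median log2FC of 1.06, or 0.68 over 8 tested genes without DMV 3. The median of 1.06 was the value of a gene that did not pass (adjusted p = 0.0815). The summed level of the list overlapped between groups, at 191 to 234 CPM in WTV and 182 to 229 CPM in DMV. *Kcnq1* had 8.91, 12.9 and 18.9 CPM in WTV 1 to 3 and 59.3, 64.4 and 74.2 CPM in DMV 1 to 3. Every double mutant lay above the wild-type mice (log2FC 2.28 at an adjusted p of 0.000527), as they did for its partner *Kcne3* (4.82 ± 1.84 CPM in WTV and 14.8 ± 2.19 CPM in DMV, log2FC 1.63 at an adjusted p of 0.00304). *Kcnn4*, a calcium-activated channel, was higher (log2FC 2.14 at an adjusted p of 0.0305), a call lost without WTV 2, without any of the DMV mice (adjusted p 0.0581 to 0.0975) and without the filter. *Kcnk5*, which had the highest level of the list, stood at 167 ± 2.55 CPM in WTV and 72.1 ± 15.15 CPM in DMV (log2FC -1.21 at an adjusted p of 0.000666). *Kcnj16* was also lower (log2FC -4.35 at an adjusted p of 0.00530), although limma-voom gave it an adjusted p of 0.0655. It had 0.625, 4.62 and 4.70 CPM in WTV 1 to 3 and 0.0939, 0.232 and 0.142 CPM in DMV 1 to 3. All double mutants were thus near the floor, and WTV 1 lay far below WTV 2 and 3.

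Of cation-chloride cotransporters, 0 were higher and 2 lower out of 5 tested, with a median log2FC of 0.25. Without WTV 1, 2 were higher and 2 lower, with library size alone 2 were higher and 1 lower, and without any 1 of the other mice 0 were higher and 1 lower. *Slc12a2*, encoding NKCC1, which loads chloride for secretion and is also in the crypt marker list, had 3.75, 19.9 and 24.8 CPM in WTV 1 to 3 and 80.5, 61.7 and 80.1 CPM in DMV 1 to 3. The groups did not overlap, yet the test did not pass (log2FC 2.21 at an adjusted p of 0.0541), while without WTV 1 it did (log2FC 1.73, adjusted p = 9.12e-05). *Slc12a2* also passed with library size alone (adjusted p = 0.0459), DESeq2 (0.0110), limma-voom (0.00847), the stricter filter (0.0477) and sex as a covariate (0.0488). *Slc12a7* stood at 302 ± 25.5 CPM in WTV and 241 ± 14.5 CPM in DMV (log2FC -0.32 at an adjusted p of 0.0483), a call kept without WTV 1 but lost without any other mouse (adjusted p 0.0603 to 0.172), with library size alone, without the filter and with sex as a covariate. The gene of an alternative β subunit of the sodium pump, *Atp1b3*, was higher at 17.6 ± 4.95 CPM in WTV and 30.9 ± 2.46 CPM in DMV (log2FC 0.81 at an adjusted p of 0.0135).

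Of secretagogue receptor and cyclic nucleotide genes, 1 was higher and 6 lower out of 22 tested, with a median log2FC of -0.20. The median was -0.40 without DMV 1 and -0.01 with library size alone, and the higher calls were 3 without WTV 3 and 0 without DMV 2. *Gucy2c*, the receptor for guanylin and heat-stable enterotoxin, stood at 499 ± 41.5 CPM in WTV and 384 ± 15.7 CPM in DMV (log2FC -0.38 at an adjusted p of 0.0271), a call lost with library size alone and without WTV 2, WTV 3, DMV 2 or DMV 3 (adjusted p 0.0702 to 0.0944 in these 4 fits). The guanylin genes *Guca2a* (log2FC 0.10 at an adjusted p of 0.847) and *Guca2b* (log2FC -0.19 at an adjusted p of 0.572) did not pass, and their signs turned in some of the fits with a mouse left out. The adenylyl cyclase genes *Adcy5* (log2FC -2.88 at an adjusted p of 0.000333) and *Adcy9* (log2FC -1.23 at an adjusted p of 0.0109) and the purine receptor gene *P2ry2* (log2FC -2.05 at an adjusted p of 0.000782) were lower. *Abcc4*, encoding an exporter of cyclic nucleotides, was higher (log2FC 1.78 at an adjusted p of 0.0144), a call lost without DMV 2 (adjusted p = 0.0739).

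Of aquaporins, 1 was higher and 3 lower out of 6 tested, with a median log2FC of -2.51, or -1.63 without WTV 1. *Aqp7* had 201, 155 and 135 CPM in WTV 1 to 3 and 11.0, 10.5 and 19.4 CPM in DMV 1 to 3. Each double mutant lay far below the wild-type mice (log2FC -3.59 at an adjusted p of 0.000181). *Aqp1* (log2FC -3.24 at an adjusted p of 0.00230) and *Aqp3* (log2FC -3.24 at an adjusted p of 0.00487) were also lower, and *Aqp4* (log2FC 1.69 at an adjusted p of 0.00372) was higher.

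**Figure D5:**
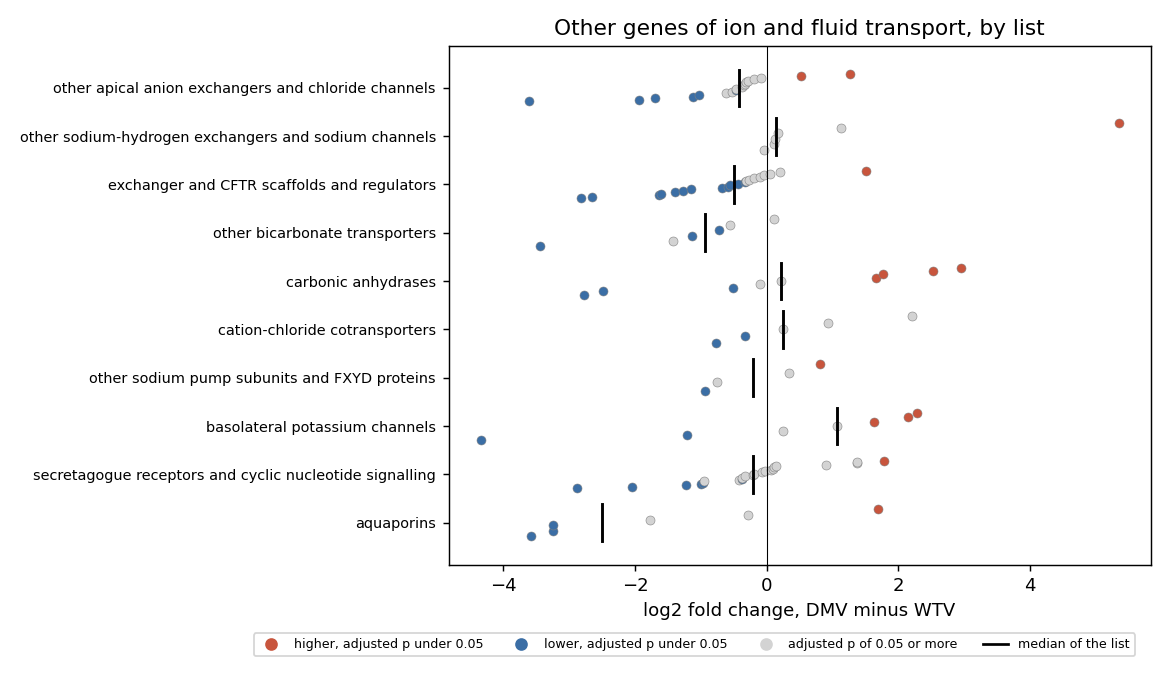
Log2 fold change, DMV over WTV, of the 103 tested genes in 10 lists of ion and fluid transport, 1 dot per gene, with list medians as black bars. Of the dots, 14 higher and 38 lower genes passed the test, and the medians run from -2.51 for aquaporins to 1.06 for potassium channels.

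The genes whose profile over the 6 mice was most like each transport gene were ranked by the root-mean-square difference of log2 CPM centred on each gene's mean, over 11865 genes. For *Cftr* these were *Rhbdd3* (0.09) and *Prex1* (0.09), and for *Slc26a3* *Atrx* (0.05) and *Cbx5* (0.06). *Dennd3* (0.04) and *Rnf128* (0.05) came nearest to *Slc26a6*, and *Ceacam20* (0.08) and *Tmc7* (0.09) to *Slc9a2*. *Slc9a3* was followed by *Efr3a* (0.04) and *Tsga10* (0.05), *Slc4a4* by *Gk5* (0.04) and *Zfp26* (0.05), and *Atp1b1* by *Inpp4a* (0.04) and *Clk3* (0.04). All of these likenesses rest on the same 6 libraries in 2 groups.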

How the data were processed

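Duodenal villus epithelium was released with EDTA and kept on a filter, and polyadenylated RNA was sequenced from each of 6 mice. According to the methods, the authors used HISAT2 for alignment to mm9 and featureCounts for gene counts, and the deposited values are raw counts. Strand setting and handling of reads that match several genes are not given in the sources used here. Groups follow the genotype labels.

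Analysis began from these counts in R 4.3.3 with edgeR 4.0.16, after a trial on simulated counts. The filter was filterByExpr by group, scaling was TMM, and a robust quasi-likelihood fit gave p-values that were adjusted by the Benjamini-Hochberg method across 13346 features. An adjusted p under 0.05 was called. SE is the log2FC over the square root of F. Counting intervals and the floor of 3 counts cover counting error only. Symbols, positions and exon lengths came from the mm9 GENCODE annotation, which held 20032 of 20073 Ensembl identifiers.

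The 7 genes and all lists were chosen with earlier results of these data known. From each list the text names up to 4 genes per direction by adjusted p, with a log2FC of at least 1 in size, the gene with the highest level, and textbook partners of the 7. Some genes under this rule are not reported here. *Atp1b3*, *Clns1a*, *Muc6*, *Gkn3*, *Cela1*, *Lgr5*, *Fabp1*, *Apoa4* and *Creb3l3* were named after their values were seen. Alternatives were RLE factors, library size alone, DESeq2 1.42.0, limma-voom (limma 3.58.1), no filter, a stricter filter, a replicate block, a sex covariate, fold thresholds, and leaving out each mouse.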

Additional observations from a re-analysis of the deposited data

How the results depend on the processing

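The 7 transport genes kept their direction under RLE factors, library size alone, DESeq2, limma-voom, both other filters, the block, the sex covariate and every fit with a mouse left out. Requiring a log2FC of at least 1 or 2 in size left 2 and 0 of the 7 genes, and 2286 and 708 of the 4905 calls over all genes. Leaving out single mice moved the log2FC over 0.32 to 0.53 for *Slc26a3*, -0.71 to -0.42 for *Slc9a3* and -0.44 to -0.15 for *Slc4a4*, each across the threshold in some fits. *Slc9a3* also lost its call with library size alone (-0.32) and with the replicate block (-0.54, adjusted p = 0.0538), and the cause was not tested. Same-numbered mice are of the same sex, and the methods describe the groups as matched for age and sex, but no label ties a number to a litter or day. Deviations from the group means correlated at 0.02, -0.11 and 0.01 for the same-numbered pairs across genes, and 1 of 6 samples correlated best with its own number. The block changed no other call among the 7 genes and left 3834 calls over all genes. Among the genes named from the transport lists, it ended the calls of *Ano1* (adjusted p = 0.0668), *Car2* (0.0574), *Slc12a7* (0.111) and *Gucy2c* (0.0848), and it left 8 crypt markers and 0 enterocyte markers higher, against 10 and 1. Depth limits *Slc9a4* and *Slc26a4*, which had few counts in a group. It also limits genes such as *Kcnj16*, *Car7* and *Slc4a8*, with means of 0.156, 0.172 and 0.312 CPM in DMV, and *Abcc4*, with 0.395 CPM in WTV.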

Other observations

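The male pair and the female mice were set side by side after the values were seen. Between the males, *Cftr* was higher in the double mutant by 2.11 on the log2 scale, and between females by 0.76 to 1.32 over all pairings. For *Slc9a2* the log2 difference was -0.44 between the males and -1.43 to -1.24 between females. For *Slc9a3* it was -0.12 between the males and -0.80 to -0.70 between females, and here the male double mutant stood apart from the other double mutants. *Slc4a4* had -0.08 between the males and -0.65 to -0.16 between females, and *Slc26a6* -0.65 and -0.99 to -0.80. For *Atp1b1* the fall was larger between the males, at -0.64 against -0.60 to -0.33, and for *Slc26a3* the male value of 0.53 lay within the female range of 0.26 to 0.53. No p is given, since 1 male a group cannot carry a test of sex, and sex and the single wild-type library with few goblet and Paneth cell transcripts cannot be told apart.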
